A study of Bos grunniens with 18 samples.

Results

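The NF-kappa B system of yak (*Bos grunniens*) blood was followed through 10 genes: the 5 subunits *NFKB1*, *NFKB2*, *REL*, *RELA* and *RELB*, the inhibitors *NFKBIA*, *NFKBIE* and *NFKBIZ*, and the feedback genes *TNFAIP3* and *ZFP36*. Members were the rows of the gene table that carry one of these names, which gave 8 of the 10 genes among 20607 genes in all. *RELA* and *NFKBIA* matched no gene name and were not analysed here under those names. All 8 passed the filter on low counts, and each was present in all 18 libraries.

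Blood came from adult female yaks of 4 to 8 years with normal reproductive function, with 6 libraries per stage and 18 in all. Y-A stands for anestrus, Y-E for estrus, and Y-P for pregnancy. The study followed 6 cows through a program of estrus synchronization with a progesterone pessary, cloprostenol and a gonadotropin-releasing hormone, with insemination after it, so estrus here was induced rather than spontaneous and no stage carries a genetic change. The day of pregnancy at sampling is not given in the sources used here, and the stages were sampled one after another, so that stage and sampling time cannot be told apart. Whole blood in EDTA went straight into the RNA reagent without separation of cell types, and poly(A) RNA was sequenced. In such bulk RNA, fewer cells of a type and less RNA per cell cannot be told apart. The total count of a library lay between 30247267 and 48401076, where 3 counts correspond to at most 0.0992 CPM (counts per 1000000 counts), far below the level of every member. Y-E replicate 6 stood apart from the other Y-E libraries in its red cell RNA. For the members and the further genes of the pathway, results are given with and without it where it changes a call.

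NF-kappa B is a family of dimeric transcription factors that turn on genes of inflammation and of lymphocyte survival. In resting cells IkB proteins hold the dimers in the cytoplasm. Signals from tumor necrosis factor receptors, Toll-like receptors and antigen receptors activate the IkB kinase complex, the inhibitors are degraded, and the dimers enter the nucleus. Several of the genes switched on are brakes on the pathway itself, among them IkB proteins and *TNFAIP3*. The activity of the pathway depends largely on where these proteins are in the cell, which RNA levels do not measure.

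The members differed widely in level. Per length, as FPKM (fragments adjusted for the exon length and the mapped reads), *ZFP36* stood highest, with a mean of 235 over the 18 libraries, and only 1.32% of all genes had a higher mean. *NFKB1* followed with 56.5 FPKM, then *REL* with 38.3 and *NFKB2* with 35.9. *TNFAIP3* (23.5 FPKM) and *NFKBIZ* (21.7 FPKM) came next, and *NFKBIE* (13.6 FPKM) and *RELB* (12.7 FPKM) were lowest. The libraries of *ZFP36*, from 165 to 351 FPKM, did not overlap with those of any other member. Below it, *NFKB1* had a higher FPKM than *REL* in 18 of 18 libraries, *NFKB2* than *TNFAIP3* in 17 and *NFKBIZ* than *NFKBIE* in 18. The order within the remaining neighbours changed between libraries, since *REL* was above *NFKB2* in 10 of 18, *TNFAIP3* above *NFKBIZ* in 10 and *NFKBIE* above *RELB* in 11.

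Between stages, the levels of *NFKB1* and *REL* were lower in pregnancy than in either other stage, by 32.5% to 38.6%. *NFKBIE* and *ZFP36* were lower in pregnancy than in estrus. No member passed the test between estrus and anestrus. *RELB* (SE 0.18) and *NFKBIZ* (SE 0.14) were not called in any comparison, with fitted log2 fold changes between −0.10 and 0.14. In a test for any difference among the 3 stages, *NFKB1* (adjusted p = 0.000914), *REL* (adjusted p = 0.00117) and *NFKBIE* (adjusted p = 0.0159) passed, against 11.0% of all 14508 genes tested. These and the following adjusted p-values come from edgeR's quasi-likelihood test with Benjamini-Hochberg adjustment over all genes tested, and fold changes are on the log2 scale of CPM after TMM scaling, which adjusts library sizes for composition.

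**Figure D1:**
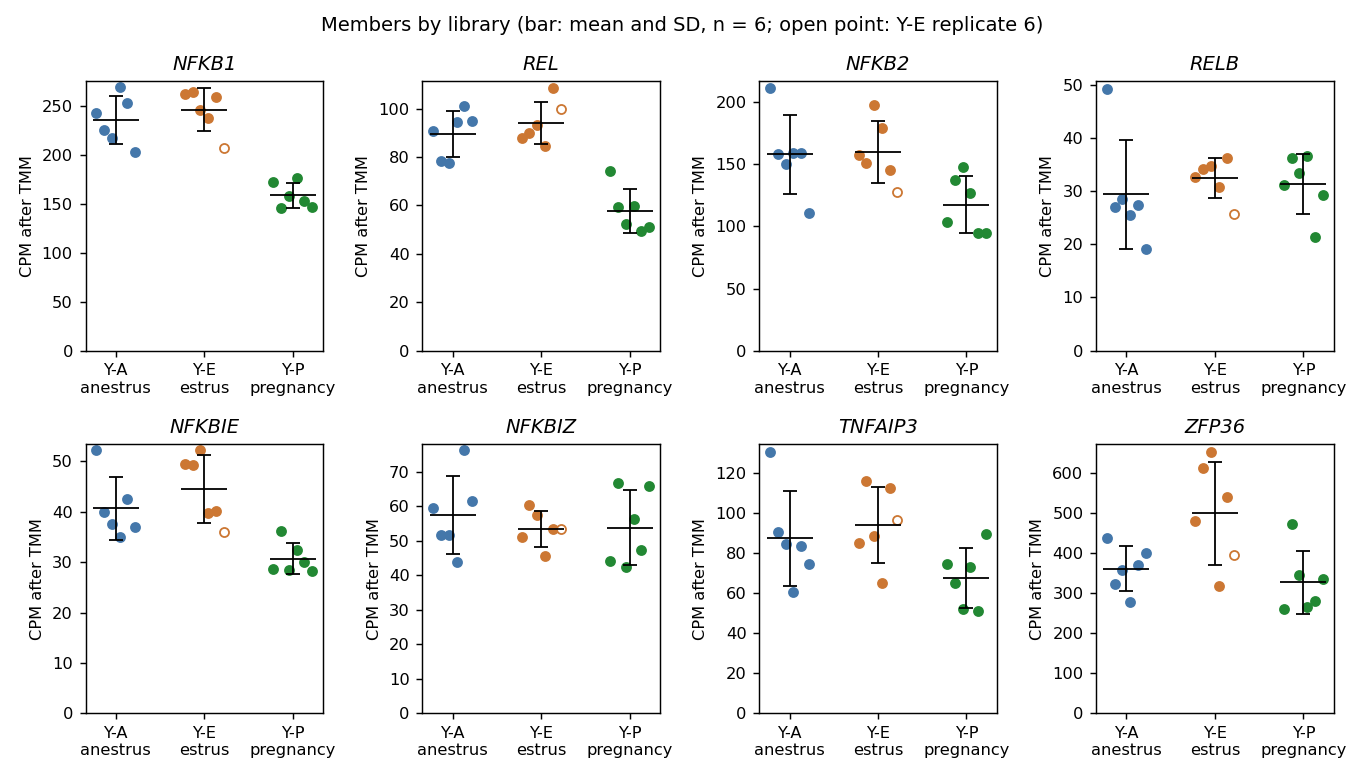
Level of each of the 8 members in CPM after TMM scaling, by stage, with 1 point for each of the 18 libraries and the mean and SD of each stage. The 6 Y-P libraries of *NFKB1* and of *REL* lie below all libraries of the other 2 stages, and the open point marks Y-E replicate 6.

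*NFKB1* (ENSBGRG00000003138, chromosome 6, 104518806 to 104621771, plus strand) encodes the precursor that is processed to the DNA-binding partner of REL and RELA. Its CPM in Y-A ranged from 203 over a median of 234 to 269, and in Y-E from 207 over a median of 253 to 264. In Y-P the lowest library had 146, the median was 155 and the highest had 177. The highest Y-P library thus lay below the lowest of the other 12. Against Y-A the level fell by 0.57 on the log2 scale (SE 0.09, adjusted p = 0.00263), which is 32.5% lower, and against Y-E it fell by 0.63 (SE 0.09, adjusted p = 0.000443), or 35.5%. Since the groups did not overlap, Y-P was by necessity lower in 6 of 6 replicate numbers in both comparisons.

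*REL* (ENSBGRG00000007184, chromosome 9, 65287554 to 65327944, plus strand) encodes c-Rel, a subunit known for its role in lymphocyte activation. Its CPM ranged from 77.6 over a median of 92.6 to 100.9 in Y-A and from 84.5 over a median of 91.6 to 108 in Y-E. In Y-P it ranged from 49.4 over a median of 55.9 to 74.3. All 6 Y-P libraries again lay below the other 12. The level in Y-P was lower than in Y-A by 35.4% (log2 fold change −0.63, SE 0.11, adjusted p = 0.00422) and lower than in Y-E by 38.6% (log2 fold change −0.70, SE 0.11, adjusted p = 0.000601).

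*NFKB2* (ENSBGRG00000026174, chromosome 25, 25015464 to 25022528, plus strand) encodes the precursor used by the noncanonical branch. Its mean CPM in anestrus was 158 ± 31.9, in estrus 160 ± 25, and in pregnancy 118 ± 23.0 (SD, n = 6). The stages overlapped, although Y-P was lower in 6 of 6 replicate numbers in both comparisons. For this and the later genes, nothing says that a number marks the same cow. The log2 fold changes of −0.43 against Y-A (SE 0.15, adjusted p = 0.0933) and −0.44 against Y-E (SE 0.15, adjusted p = 0.0531) did not pass. Without Y-E replicate 6, in which *NFKB2* was lowest of its stage, the second passed (log2 fold change −0.50, adjusted p = 0.0378). The call against Y-E lay near the threshold, as it was made in 5 of 18 fits that left out a library. It was also made in 4 of 8 other settings, among them DESeq2 and the replicate number as a block. The call against Y-A was made in 0 of 18 and 1 of 8, the block over 18 libraries (adjusted p = 0.0407).

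*RELB* (ENSBGRG00000024301, chromosome 20, 63003729 to 63036027, minus strand) encodes the partner of the NFKB2 product. Its mean CPM in anestrus was 29.4 ± 10.2, in estrus 32.4 ± 3.75, and in pregnancy 31.3 ± 5.67 (SD, n = 6). The log2 fold changes of Y-P were 0.09 against Y-A (SE 0.18, adjusted p = 0.821) and −0.05 against Y-E (SE 0.18, adjusted p = 0.897), and scaling by library size alone turned the second to 0.10. Y-A replicate 1 held 49.2 CPM of *RELB*, while the other 5 Y-A libraries lay between 19.1 and 28.4.

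Among the inhibitors, *NFKBIE* (ENSBGRG00000007378, chromosome 24, 17578509 to 17588758, plus strand) encodes IkB epsilon, which retains REL-containing and RELA-containing dimers. Its CPM ranged from 34.9 over a median of 38.7 to 52.3 in Y-A, from 35.9 over 44.7 to 52.2 in Y-E, and from 28.3 over 29.3 to 36.2 in Y-P. In both comparisons 5 of the 6 Y-P libraries lay below every library of the other stage. The level in Y-P was 31.0% lower than in Y-E (log2 fold change −0.53, SE 0.12, adjusted p = 0.00653), and the fitted difference from Y-A missed the threshold (log2 fold change −0.41, SE 0.12, adjusted p = 0.0513). The gene overlaps *HSP90AB1* on the other strand, and the sources used here do not say whether strand was used in counting. The fitted change of *HSP90AB1* from Y-E to Y-P had the opposite sign and did not pass (log2 fold change 0.41, adjusted p = 0.0597). Whether reads of *HSP90AB1* entered the count of *NFKBIE* was not tested.

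*NFKBIZ* (ENSBGRG00000004210, chromosome 1, 49796286 to 49806944, plus strand) encodes a nuclear IkB protein that works with the NFKB1 product on selected inflammatory genes. In anestrus it had a mean CPM of 57.4 ± 11.3, in estrus of 53.5 ± 5.12, and in pregnancy of 53.8 ± 10.8 (SD, n = 6), and the 3 stages overlapped. The log2 fold changes of Y-P were −0.09 against Y-A (SE 0.14, adjusted p = 0.748) and 0.01 against Y-E (SE 0.14, adjusted p = 0.975). With library size alone as the scale, the first became 0.08.

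*TNFAIP3* (ENSBGRG00000014104, chromosome 10, 12350987 to 12362508, minus strand) encodes a ubiquitin-editing enzyme that ends signaling from tumor necrosis factor receptors. Its CPM ranged from 60.5 over a median of 84.1 to 131 in anestrus, from 65.1 over 92.5 to 116 in estrus and from 51.0 over 69.1 to 89.5 in pregnancy. The stages overlapped, and only 2 Y-P libraries lay below all Y-A or all Y-E libraries. The log2 fold changes of −0.37 against Y-A (SE 0.18, adjusted p = 0.226) and −0.48 against Y-E (SE 0.18, adjusted p = 0.0827) did not pass.

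*ZFP36* (ENSBGRG00000024292, chromosome 20, 67085013 to 67088279, minus strand) encodes tristetraprolin, which binds AU-rich elements and speeds the decay of cytokine mRNAs. Its CPM ranged from 279 over a median of 363 to 437 in Y-A, from 316 over 509 to 652 in Y-E and from 261 over 308 to 471 in Y-P. Estrus held the highest library and the widest spread, and 3 Y-P libraries lay below all Y-E libraries. From Y-E to Y-P the level fell by 0.61 on the log2 scale (SE 0.18, adjusted p = 0.0268), with Y-P lower in 6 of 6 replicate numbers. Against Y-A the log2 fold change of −0.14 did not pass (SE 0.18, adjusted p = 0.681) and was 0.03 with library size alone as the scale. The call against Y-E depended on the scale and on single libraries. It was lost with library size alone as the scale (log2 fold change −0.46, adjusted p = 0.054) and with limma on both FPKM scales (adjusted p of up to 0.0577). It was also lost when any of 6 libraries was left out, namely Y-E replicate 2, 3 or 5 or Y-P replicate 1, 4 or 5, with an adjusted p of up to 0.0719.

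**Figure D2:**
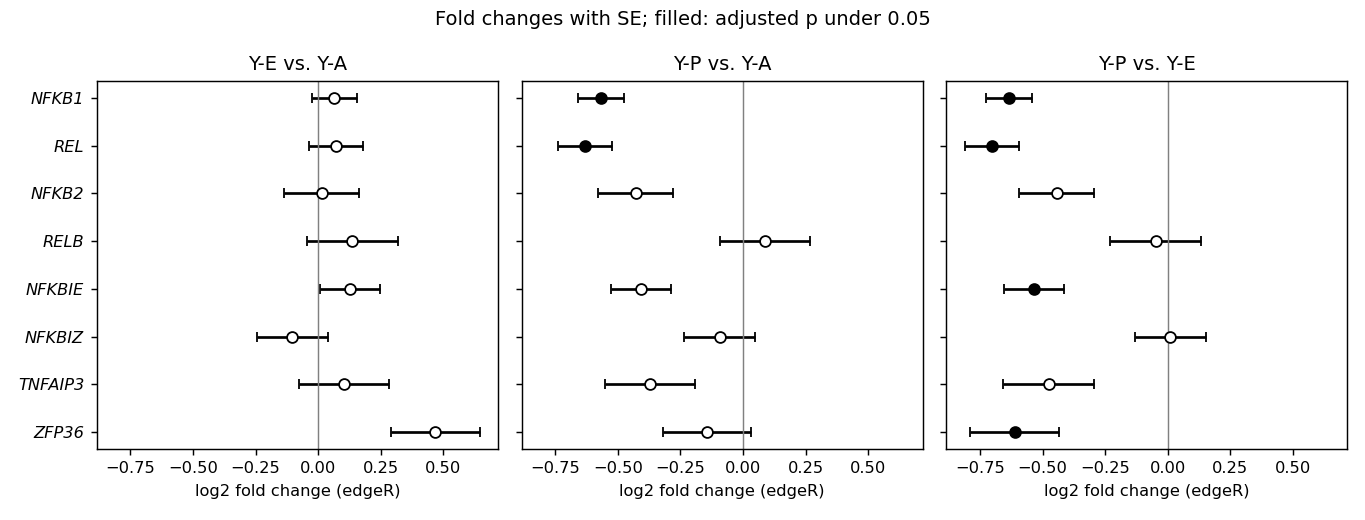
Log2 fold change of each member with its SE in the 3 comparisons from edgeR, with filled points at an adjusted p under 0.05. Pregnancy has the filled points, *NFKB1* and *REL* against anestrus and these with *NFKBIE* and *ZFP36* against estrus, and estrus against anestrus has none.

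Counted over the members, 2 of 8 were lower in Y-P vs. Y-A, where 5.83% of all genes were called and 3.61% were called lower. In Y-P vs. Y-E, 4 of 8 were lower, where 14.4% of all genes were called and 8.68% were called lower. In both, 0 members were higher, as 2.22% and 5.77% of all genes were. The groups did not overlap for 2 members in each comparison, *NFKB1* and *REL*, while 2.32% of all genes lay wholly below in Y-P vs. Y-A and 3.84% in Y-P vs. Y-E. The 2 comparisons share the Y-P libraries and are not independent. The median log2 fold change of the 8 members was −0.39 against Y-A and −0.51 against Y-E, beside 0.03 and 0.04 for all genes. No member reached the study's further limit of an absolute log2 fold change of 1, which 1.43% and 2.67% of all genes did in these comparisons and 0.0138% in Y-E vs. Y-A.

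The scale matters for this count. With library size alone, the median of all genes moved by 0.16 in Y-P vs. Y-A and 0.14 in Y-P vs. Y-E, and the share of called genes that were higher in Y-P went from 38.1% to 80.6% and from 39.9% to 70.3%. *NFKB1* and *REL* remained called on that scale (log2 fold changes of −0.40 and −0.46 against Y-A, −0.49 and −0.55 against Y-E), and so did *NFKBIE* against Y-E (−0.39).

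In Y-E vs. Y-A, 0 of 8 members were called by edgeR, by DESeq2 or by limma on FPKM, where 0.0207% of all genes were called by edgeR. At an unadjusted p under 0.05, each of these tools had 1 member, *ZFP36*, and edgeR had 900 of all 14508 genes. Its CPM was 361 ± 55.8 in Y-A and 499 ± 128 in Y-E (SD, n = 6), with Y-E higher in 5 of 6 replicate numbers (log2 fold change 0.47, SE 0.18, adjusted p = 0.591). The log2 fold changes of the other 7 lay between −0.10 for *NFKBIZ* (SE 0.14) and 0.14 for *RELB* (SE 0.18). *NFKB1*, for example, differed by 0.06 (SE 0.09).

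A few libraries recurred at the edges. Y-A replicate 1 was the highest Y-A library for 5 members (*NFKB2*, *RELB*, *NFKBIE*, *TNFAIP3* and *ZFP36*), and Y-E replicate 6 was the lowest Y-E library for 4 (*NFKB1*, *NFKB2*, *RELB* and *NFKBIE*). Y-A replicate 4, Y-E replicate 4 and Y-P replicate 5 were each the lowest of their stage for 4 members as well. Y-A replicate 6 was lowest of its stage for 3 (*NFKB1*, *NFKB2* and *RELB*). It stood apart in its red cell RNA, with a summed CPM of 10992 for 5 red cell markers against 450 to 2067 in the other Y-A libraries. Y-E replicate 6 stood apart in the same way, with 4657 against 92.4 to 173 in the other Y-E libraries. Without it, *NFKB1* had a log2 fold change of −0.68 and *REL* of −0.68 in Y-P vs. Y-E, with adjusted p-values of 0.00026 and 0.00105, and 5 of 8 members were lower in that comparison instead of 4. In Y-P vs. Y-A the count without it was 3, with *NFKBIE* added (adjusted p = 0.0436). In the test for any difference among the 3 stages, 4 members passed without Y-E replicate 6 and 3 with it. Over all genes, 1177 of 14653 were called lower in Y-P vs. Y-E without Y-E replicate 6 and 558 in Y-P vs. Y-A. In the test among the 3 stages 1661 then passed. With all 18 libraries these counts were 1259, 524 and 1602 of 14508.

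Markers of blood cells also moved with pregnancy, and their part in the results on the members was not tested. The summed CPM of 7 neutrophil markers was 2696 to 5986 in Y-P, 3698 to 9352 in Y-A and 4744 to 12687 in Y-E, and 5 of the 7 were lower in Y-P than in Y-E and 0 of 7 than in Y-A. The 8 T cell markers summed to 1384 to 2287 in Y-P, 1177 to 1374 in Y-A and 1216 to 1418 in Y-E, with 4 of 8 higher in Y-P vs. Y-E and 3 of 8 in Y-P vs. Y-A. The 5 platelet markers were lower in Y-P (155 to 209) than in Y-A (284 to 373) and Y-E (241 to 397), with 3 of 5 called in both comparisons. The 6 monocyte markers overlapped between stages (602 to 1435 in Y-P, 1012 to 1647 in Y-A, 866 to 2008 in Y-E), with 1 of 6 lower in Y-P vs. Y-E. Of all genes, 8.68% were called lower and 5.77% higher in Y-P vs. Y-E. In Y-P vs. Y-A these shares were 3.61% and 2.22%.

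The 5 red cell markers summed to 39.2 to 126 in Y-P, 450 to 10992 in Y-A and 92.4 to 4657 in Y-E. Lower calls were made for 5 of 5 in Y-P vs. Y-A and for 4 of 5 in Y-P vs. Y-E. The median log2 fold changes of this list were −5.98 and −4.41. B cell, NK and cytotoxic, and eosinophil markers had 0 genes called in either comparison with pregnancy. No marker in the table was at or under 3 counts in every library. Of 16 immediate-early genes, 4 (*FOS*, *FOSB*, *EGR1* and *DUSP1*) were higher in Y-P vs. Y-E, where 5.77% of all genes were called higher. In Y-P vs. Y-A 3 of 16 were higher, against 2.22% of all genes. The list as a whole was divided in Y-P vs. Y-E, with 8 genes fitted below 0, 8 above and a median log2 fold change of 0.07. Its summed CPM was 1568 to 5645 in Y-P, 1208 to 2389 in Y-A and 1896 to 2761 in Y-E.

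**Figure D3:**
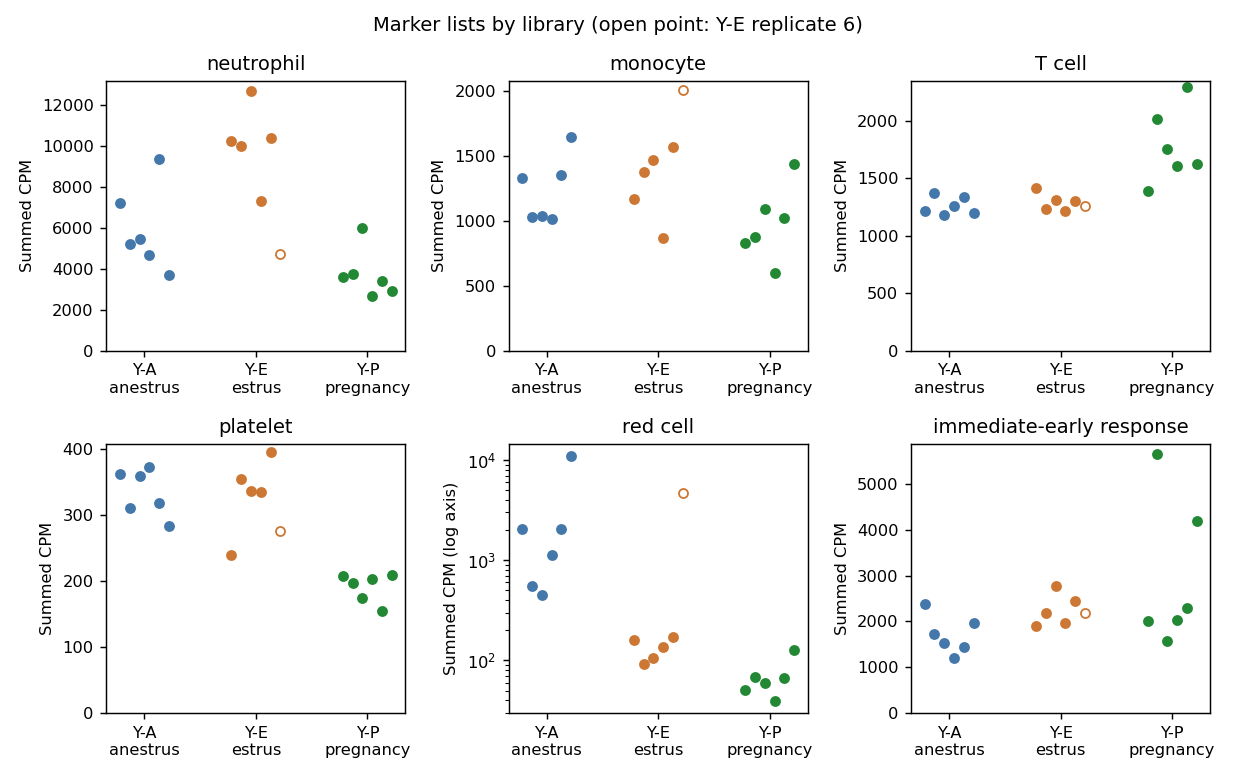
Summed CPM of 6 marker lists by library, with 1 point per library and an open point for Y-E replicate 6. Neutrophil and platelet lists lie lowest in Y-P, the T cell list lies highest in Y-P, and the red cell axis is logarithmic.

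Around the members, 5 further lists of the pathway held 67 genes, of which 54 had a named row and 53 were tested. In Y-E vs. Y-A 0 of 53 were called by edgeR, and 0 were called by DESeq2 or limma. At an unadjusted p under 0.05 edgeR had 4 (*MYD88*, *TNFRSF1A*, *TNIP1* and *BCL3*), beside 900 of all 14508 genes. In Y-P vs. Y-A 4 of 53 were lower (7.55%, against 3.61% of all genes) and 0 were higher. In Y-P vs. Y-E 11 of 53 were lower (20.8%, against 8.68% of all genes) and 0 were higher. On log2(FPKM + 1), limma called 2 pathway genes higher in Y-P vs. Y-A (*TAB1* and *TRADD*). In Y-P vs. Y-E *MALT1* was called higher by DESeq2 and by edgeR with library size alone. It was also called higher with the replicate number as a block, over 18 or 17 libraries. Without Y-E replicate 6, edgeR called 13 pathway genes in that comparison, beside 2007 of all 14653 genes. The additions were *MALT1*, which was higher, and *IL10*, which was lower. These few are named because the counts are small.

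Among the 3 other IkB family genes, 0 were called in any comparison. *NFKBIB*, which encodes IkB beta and was the highest of them in FPKM, had 20.2 ± 8.41 CPM in anestrus, 27.8 ± 6.23 in estrus and 23.5 ± 2.1 in pregnancy (SD, n = 6). Of the 6 IkB kinase genes, 1 was lower in Y-P vs. Y-E (16.7%, against 8.68% of all genes). This was *IKBKG*, the regulatory subunit NEMO, with 59.3 ± 4.98 CPM in Y-P and 75.8 ± 9.31 in Y-E (log2 fold change −0.35, SE 0.09, adjusted p = 0.0165). It did not pass with library size alone as the scale (adjusted p = 0.174) or with limma on both FPKM scales (adjusted p of up to 0.233). *MAP3K14*, the kinase NIK of the noncanonical branch, was highest of its list in FPKM and its log2 fold changes of −0.07 against Y-A and −0.16 against Y-E did not pass.

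Of 22 receptors and adaptors, 0 were called in Y-P vs. Y-A and 3 were lower in Y-P vs. Y-E (13.6%, against 8.68% of all genes). *MYD88*, the adaptor of Toll-like and interleukin-1 receptors, had a mean CPM of 135 ± 19.8 in Y-P and 281 ± 96.7 in Y-E (log2 fold change −1.06, SE 0.18, adjusted p = 0.00117). *TNFRSF1A*, the main receptor for tumor necrosis factor, fell by 0.84 (SE 0.19, adjusted p = 0.00653), and *LTBR*, a receptor of the noncanonical branch, fell by 0.77 (SE 0.19, adjusted p = 0.0136), although with limma on log2(FPKM + 1) the adjusted p of *LTBR* was 0.0514. *BIRC3*, a ubiquitin ligase at these receptors and the highest in FPKM, had log2 fold changes of 0.11 against Y-A and 0.13 against Y-E, neither of which passed.

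Of 10 further brakes on the pathway, 0 were called in Y-P vs. Y-A and 2 were lower in Y-P vs. Y-E (20%, against 8.68% of all genes). *TNIP1*, the partner of the TNFAIP3 protein, fell by 0.70 (SE 0.14, adjusted p = 0.00282), from 609 ± 104 CPM in Y-E to 376 ± 49.8 in Y-P (SD, n = 6). *N4BP1*, an inhibitor of the IkB kinase complex, fell by 0.58 (SE 0.15, adjusted p = 0.015), a call lost with library size alone as the scale (adjusted p = 0.0558) and on both FPKM scales (adjusted p of up to 0.0917). *ZFP36L2*, a relative of *ZFP36* and the highest in FPKM of this list, had a log2 fold change of 0.24 against Y-E and of 0.54 against Y-A, and neither passed.

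Of 12 known target genes tested, 4 were lower in Y-P vs. Y-A (33.3%, against 3.61% of all genes). In Y-P vs. Y-E 5 were lower (41.7%, against 8.68% of all genes). *IL1B*, which encodes the cytokine interleukin-1 beta and was the highest of them in FPKM, had 266 ± 107 CPM in anestrus, 323 ± 76.7 in estrus and 133 ± 34.9 in pregnancy (SD, n = 6). It fell by 1.004 from Y-A to Y-P (SE 0.24, adjusted p = 0.0208) and by 1.28 from Y-E to Y-P (SE 0.24, adjusted p = 0.00199). *PTGS2*, the inducible cyclooxygenase, fell by 1.25 and 1.15 (adjusted p = 0.0176 and 0.011), and *NLRP3*, an inflammasome sensor, fell by 0.80 and 0.75 (adjusted p = 0.0118 and 0.00641). The other genes called were *IL1A* in both comparisons and *IER3* in Y-P vs. Y-E, which are named here because the count is small, and *IER3* missed the threshold with library size alone (adjusted p = 0.0737), without the filter (adjusted p = 0.0533) and on log2(FPKM + 1) (adjusted p = 0.0564). Without Y-P replicate 2, 2 of the 4 in Y-P vs. Y-A remained, *NLRP3* and *PTGS2*, and *IL1B* had an adjusted p of 0.0508.

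**Figure D4:**
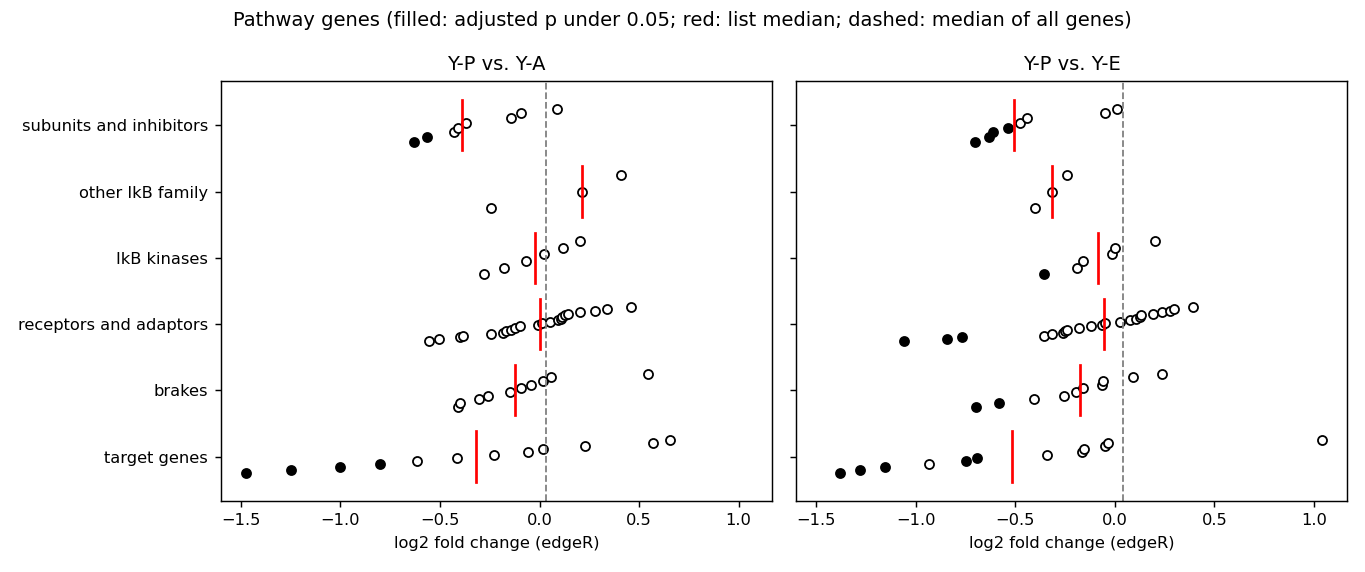
Log2 fold change of each tested gene of the members and of the 5 further pathway lists in the comparisons of Y-P with Y-A and with Y-E, with filled points at an adjusted p under 0.05, a red line at the median of each list and a dashed line at the median of all genes. Every filled point lies below 0, in Y-P vs. Y-A among members and target genes and in Y-P vs. Y-E in 5 of the 6 lists.

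Over all 18 libraries the log2 CPM of *NFKB1* and *REL* correlated most closely among the members (Pearson r = 0.88), followed by *NFKB1* and *NFKBIE* (r = 0.79) and by *NFKB2* and *NFKBIE* (r = 0.78). *RELB* and *NFKBIZ* stood apart from *NFKB1*, with r of 0.14 and 0.02. These values are descriptive, as the libraries share the stage differences and the scaling.

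Among all named genes tested, the 2 whose log2 CPM followed each member most closely over the 18 libraries were sought by Pearson correlation, as a description. For *NFKB1* they were *MARF1* (r = 0.95) and *CCDC93* (r = 0.94), and for *REL* they were *SEL1L* (r = 0.95) and *AGO4* (r = 0.93). *NFKB2* was followed by *CARHSP1* (r = 0.90) and *ERG* (r = 0.89), and *RELB* by *SORBS3* (r = 0.86) and *STK11IP* (r = 0.84). *NFKBIE* was followed by *SERTAD3* (r = 0.90) and *WIPF2* (r = 0.90), and *NFKBIZ* by *HDAC6* (r = 0.86) and *ADCY3* (r = 0.79). *TNFAIP3* was followed by *SMURF1* (r = 0.89) and *SIK3* (r = 0.88), and *ZFP36* by *RHOG* (r = 0.88) and *CFP* (r = 0.88). No member was among the genes closest to another member.

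Within stages, pairs that work as protein partners were compared on log2 CPM minus the stage mean, which removes the differences between stages. Of 6 pairs planned, 4 needed *RELA* or *NFKBIA* and could not be computed. *NFKB2* and *RELB*, the noncanonical partners, correlated positively (Pearson r = 0.784, permutation p = 0.0011, adjusted p = 0.0022; Spearman rho = 0.67, permutation p = 0.00577, adjusted p = 0.0115, n = 18 libraries). Without the 2 libraries farthest from the median, Y-A replicates 1 and 6, r was 0.63. Over the 6 libraries of a stage, r was 0.942 in anestrus, 0.482 in estrus and 0.753 in pregnancy, and in estrus it was −0.329 without Y-E replicate 6. On log2(FPKM + 1), the adjusted permutation p of rho was 0.0596. The permutations treat libraries as independent, while the study followed 6 cows. Repeated samples of a cow could make these p-values too small. Replicate 6 was the lowest library for both genes in Y-A and in Y-E, and whether a number marks the same cow is not stated.

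*NFKBIZ* and *NFKB1* showed no such relation within stages (Pearson r = −0.172, permutation p = 0.522; Spearman rho = −0.212, permutation p = 0.445, n = 18 libraries). The r in each stage was −0.121, 0.242 and −0.488 for Y-A, Y-E and Y-P. Without the 2 farthest libraries r was −0.176.

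**Figure D5:**
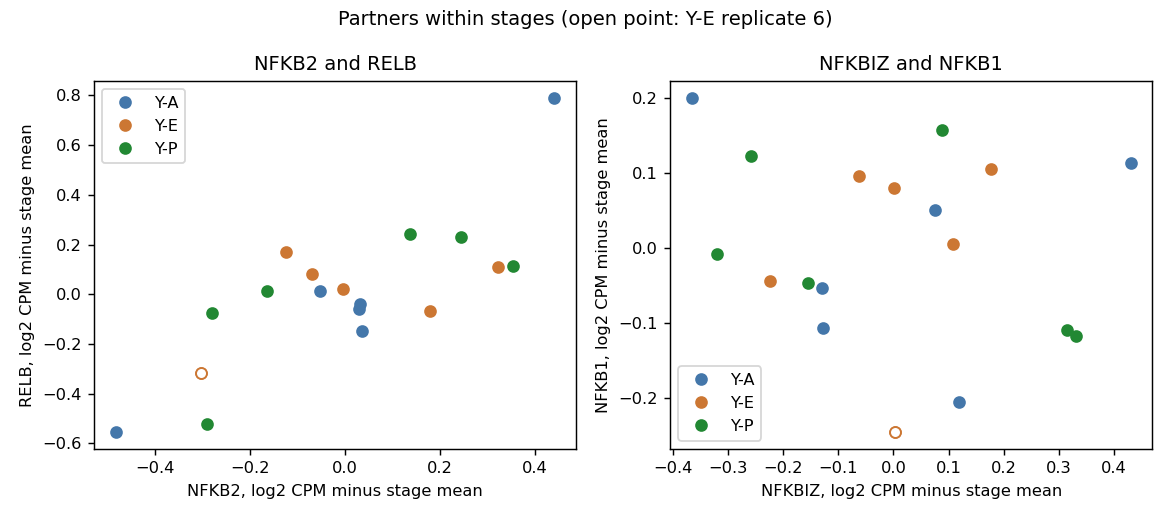
Log2 CPM minus the stage mean for 2 pairs of partners, with 1 point per library and an open point for Y-E replicate 6. *NFKB2* and *RELB* line up with r = 0.784, where Y-A replicates 1 and 6 are the extremes at the upper right and lower left, and *NFKBIZ* and *NFKB1* do not line up (r = −0.172).

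Rows named only by an identifier were read for the names that matched none. ENSBGRG00000022557 (chromosome 29, 8380451 to 8393472, plus strand) carries the KEGG orthology entry of *RELA*, and ENSBGRG00000011907 (chromosome 17, 48826588 to 48829683, minus strand) carries that of *NFKBIA*. The entry does not settle the name, since *ANKRD46* carries the second entry too, so neither row was counted as a member. They were looked up after the values were seen.

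ENSBGRG00000022557 had 48.7 ± 5.02 CPM in anestrus, 58.7 ± 10.8 in estrus and 49.7 ± 5.40 in pregnancy (SD, n = 6), and its log2 fold changes of 0.03 against Y-A and −0.24 against Y-E in Y-P did not pass (adjusted p = 0.916 and 0.19). A second row with the same entry, on the opposite strand and overlapping it, had a mean of at most 1.41 CPM in any stage. ENSBGRG00000011907 had log2 fold changes of 0.08 against Y-A and −0.12 against Y-E in Y-P (adjusted p = 0.857 and 0.745). It overlaps *PSMA6* on the other strand.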

How the data were processed

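Whole blood RNA was measured in 18 libraries, 6 from each of Y-A, Y-E and Y-P, grouped by the condition in the labels. The authors trimmed the reads with Cutadapt 1.9, aligned them with HISAT2 2.2.1 to the *Bos grunniens* genome under Ensembl identifiers and estimated expression with StringTie 2.1.6. The methods give the genome only as version v101, without an assembly name, and positions are those of the deposited table. The authors deposited FPKM values, scaled by exon length and mapped reads, and counts, whole numbers that were not normalized, whose making is not described. Libraries were made with a strand-marking (dUTP) protocol, and the use of strand in counting is not stated.

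Counts were tested with edgeR 4.0.16 in R 4.3.3: filterByExpr, TMM, a quasi-likelihood fit over 18 libraries with stage as the only factor, two-sided tests, and Benjamini-Hochberg adjustment within each comparison over 14508 genes, with a call at an adjusted p of 0.05. Levels are CPM after TMM. FPKM was used for order between genes and in limma 3.58.1 on log2(FPKM + 1) and log2(FPKM + 0.1), and DESeq2 1.42.0 was run on the counts. Other alternatives were the size factors of DESeq2 in edgeR, library size alone, no filter, the replicate number as a block and leaving out each library. Correlations used 100000 two-sided permutations within stages and were computed in Python 3.11.15. Errors are the spread between libraries, which includes counting error.

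The study followed 6 cows, but nothing says that a number marks the same cow in each stage, and p-values treat libraries as independent. All 6 same-numbered pairs of Y-A and Y-E deviated together (correlations of 0.112 to 0.653). Members and lists were chosen with earlier results of these data known. Genes named are all members, per further list and comparison up to 3 called genes of smallest adjusted p and the gene of highest FPKM, and the 2 genes closest to each member. Of the value columns, 0 belonged to no sample. Sequences were not used here. One limma result on the pathway lists is not reported here.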

Additional observations from a re-analysis of the deposited data

Results flagged for a closer look

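In a comparison of the highest and lowest library of each stage with the nearest other, 1 of 24 groups of 6 stood out, while chance marks about 1 in 20. *RELB* in Y-A replicate 1 had 49.2 CPM, and the other 5 Y-A libraries lay between 19.1 and 28.4. The gap was 0.688 of the whole range, above Dixon's critical value for 6 samples. The same library was highest of Y-A for *NFKB2*, *NFKBIE*, *TNFAIP3* and *ZFP36*. Without it, the log2 fold change of *RELB* was 0.27 in Y-P vs. Y-A and 0.33 in Y-E vs. Y-A, and neither passed.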

How the results depend on the processing

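Under 8 other settings and 18 fits that left out a library, *NFKB1* and *REL* remained lower in pregnancy than in either other stage in every fit, and *NFKBIE* than in estrus. Leaving out a library gave 2 to 3 members called in Y-P vs. Y-A, 3 to 6 in Y-P vs. Y-E and 3 to 4 differing among the stages, 2 to 6 pathway genes in Y-P vs. Y-A and 10 to 14 in Y-P vs. Y-E. Over all genes, these fits called 386 to 1077 in Y-P vs. Y-A, 1372 to 2305 in Y-P vs. Y-E and 1096 to 1714 among the stages. The count of 2 pathway genes came without Y-P replicate 2, and 0 members and 0 pathway genes were called in Y-E vs. Y-A throughout.

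The replicate block gave 4 members in Y-P vs. Y-A, adding *NFKBIE* (adjusted p = 0.0412) and *NFKB2* (adjusted p = 0.0407), 17 pathway genes in Y-P vs. Y-E and 5 members differing among the stages; DESeq2 also gave 5. Over 17 libraries, without Y-E replicate 6, the block gave 2, 15 and 4. In Y-P vs. Y-E both block fits called 5 members, adding *NFKB2* (adjusted p = 0.0208 over 18 libraries). Over all genes the block over 18 libraries raised the calls from 846 to 1282 in Y-P vs. Y-A and from 2096 to 2608 in Y-P vs. Y-E. Among the 3 stages it raised them from 1602 to 2075 of 14508 genes. Over 17 libraries the block called 1055, 2232 and 1807 of 14653 genes in the same order. DESeq2 called 2571 of 13369 genes among the 3 stages. The cause of these differences was not tested. Same-numbered libraries correlated at −0.0715 to 0.484 for Y-P and Y-A and at −0.0819 to 0.492 for Y-P and Y-E, with 4 of 6 over 0.1 each, and 3 of 6 correlated best with their own number (5 of 6 for Y-E and Y-A), so the number is a hint of pairing, and a pairing is not established.

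Of 69 single-gene results, 14 changed sign in some fit, and neither sign of any of them passed. With library size alone, log2(FPKM + 1) and log2(FPKM + 0.1), in that order, they were 0.101, 0.119 and 0.126 for *RELB* in Y-P vs. Y-E, 0.082, 0.104 and 0.108 for *NFKBIZ*, 0.027, 0.042 and 0.042 for *ZFP36* and 0.092, 0.124 and 0.129 for *MAP3K14* in Y-P vs. Y-A, and 0.039, 0.039 and 0.039 for ENSBGRG00000011907 in Y-P vs. Y-E. *MAP3K14* in Y-P vs. Y-E was 0.032 and 0.033 on these FPKM scales. With the replicate block over 17 libraries, *NFKB2* in Y-E vs. Y-A was −0.0016, *NFKBIZ* in Y-P vs. Y-E was −0.039 and *PTGS2* in Y-E vs. Y-A was 0.042.

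Leaving out a library gave these ranges in Y-E vs. Y-A: *NFKB2* −0.079 to 0.103, *BIRC3* −0.080 to 0.047, *NLRP3* −0.144 to 0.044 and *PTGS2* −0.304 to 0.032. In Y-P vs. Y-A they were *RELB* −0.030 to 0.272, *NFKBIZ* −0.164 to 0.0055, ENSBGRG00000022557 −0.015 to 0.070 and ENSBGRG00000011907 −0.103 to 0.223, and in Y-P vs. Y-E they were *RELB* −0.107 to 0.041 and *NFKBIZ* −0.061 to 0.070.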
